A study of Homo sapiens with 118 samples.

Results

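The lysine methylation enzymes of histones are described here in HepaRG cells exposed to histone deacetylase inhibitors. The members were 38 named genes. Of these, 23 encode lysine methyltransferases or relatives listed with them, and 15 encode lysine demethylases or JmjC proteins listed with them. They were chosen by gene symbol, as every row of the count table whose name without its probe number is 1 of the 38 symbols, which gave 45 probes out of 22068 on the panel. Of the 38 genes, 32 were read by 1 probe, 5 by 2 probes (KMT2A, KMT2C, EHMT1, PRDM2 and NSD3) and KDM5B by 3.

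Gene expression was measured by TempO-Seq, in which paired detector oligos that sit next to each other on an RNA are ligated, amplified and counted. HepaRG is a human liver line, derived from a liver tumor and described in the labels as liver progenitor cells, and it was bought differentiated and frozen. All groups came from this 1 line, in 3 production batches (B326, B330 and B303, used as replicates 1, 2 and 3), and every library analysed came from cells that received an inhibitor, renewed daily over 72 h. Each of 8 inhibitors was given at 5 concentrations, called C1 (lowest) to C5 (highest), which made 118 libraries in 40 groups. Of these groups 38 held 3 libraries, while panobinostat C3 and trichostatin A C4 held 2 and lacked batch B303.

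From C1 to C5 the labels give 0.041722 to 0.86 µM for apicidin, 0.177222 to 3.9 µM for mocetinostat, 0.001468 to 0.084 µM for panobinostat and 4.94 to 94.5 µM for scriptaid. They give 1.143333 to 44 µM for tacedinaline, 0.018811 to 1.5237 µM for trichostatin A and 0.404778 to 23.5 µM for vorinostat. For valproic acid the labels give 100.478 to 3038, with an open unit, since the exposure protocol lists smaller numbers under the same unit. The comparison in every chemical was a higher concentration against C1 of the same chemical, so the reference cells had also been exposed to a low concentration of the inhibitor, and solvent controls were not used here. Concentrations were not matched between chemicals, and changes under different chemicals are therefore values set side by side and say nothing about potency.

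Histone lysine methyltransferases place methyl groups on lysines of histone tails, and demethylases remove them. Methylation of lysine 4 of histone H3 (H3K4) marks active promoters and enhancers, methylation of lysine 36 (H3K36) marks transcribed gene bodies, and methylation of lysine 9 (H3K9) marks silent chromatin. Deacetylase inhibitors act on another modification, acetylation, and in hepatocytes both kinds of mark take part in keeping liver genes active.

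The libraries held 1061359 to 5250260 counts (median 3702007), and vorinostat C5 was the shallowest group with a mean of 1485592. Libraries correlated with those of their own group at a median r of 0.9608 over 11626 probes (log2 CPM), and the lowest were scriptaid C4 of batch B303 at 0.8149 and mocetinostat C2 of batch B303 at 0.8393. Among the reference groups, trichostatin A C1 of batch B303 stood apart at 0.8823. Its summed hepatocyte markers, 11200 CPM (counts scaled to library size), were the lowest of any C1 library, and the highest of the 3 trichostatin A C1 libraries was at 47200 CPM. Over all C1 libraries the hepatocyte markers summed to 11200 to 52800 CPM and at C5 to 3030 to 39600 CPM, and 8 to 10 of their 10 probes fell at C5 in 7 chemicals and 0 in trichostatin A. Proliferation markers went from 365 to 969 CPM at C1 to 68.4 to 778 CPM at C5, with 1 to 5 of 5 probes falling in those 7 chemicals. Biliary and progenitor markers summed to 54.6 to 145 CPM at C1 and 36.1 to 164 CPM at C5, with EPCAM at 0 counts in every C1 library. Of their 3 or 4 tested probes 1 or 2 rose in 5 chemicals and none fell, and in apicidin the sum went from 64.7 to 85.8 CPM at C1 to 137 to 164 CPM at C5. Stromal markers summed to 64.0 to 196 CPM at C1 and 57.2 to 124 CPM at C5, and of 6 tested probes 1 to 3 fell in each of the 8 chemicals, trichostatin A included, and 0 to 2 rose. The part of these shifts in the changes below was not tested, and in such bulk lysates fewer cells of a type and less RNA per cell cannot be told apart.

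The starts of 4 genes are shown. NSD1 and KDM1B had the most falling and rising calls, SMYD3 rose in 6 chemicals, and SETD7, which fell in 5, differed most often between chemicals. Each line holds 250 bases before and 50 after the gene start annotated by RefSeq (build GRCh38.p14), 5′ to 3′ on the gene's strand, and capitals mark a GC box (GGGCGG or its reverse complement CCGCCC), the motif bound by Sp1-family factors. NSD1 lies on the plus strand (chr5:177131548-177131847), SETD7 on the minus strand (chr4:139556170-139556469), KDM1B on the plus strand (chr6:18155172-18155471) and SMYD3 on the minus strand (chr1:246507230-246507529).
NSD1: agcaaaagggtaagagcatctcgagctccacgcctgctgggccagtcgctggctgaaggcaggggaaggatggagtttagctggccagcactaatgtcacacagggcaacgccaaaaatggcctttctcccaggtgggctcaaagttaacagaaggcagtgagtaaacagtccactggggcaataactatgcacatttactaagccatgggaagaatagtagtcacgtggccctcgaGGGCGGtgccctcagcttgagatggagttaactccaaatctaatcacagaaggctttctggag
SETD7: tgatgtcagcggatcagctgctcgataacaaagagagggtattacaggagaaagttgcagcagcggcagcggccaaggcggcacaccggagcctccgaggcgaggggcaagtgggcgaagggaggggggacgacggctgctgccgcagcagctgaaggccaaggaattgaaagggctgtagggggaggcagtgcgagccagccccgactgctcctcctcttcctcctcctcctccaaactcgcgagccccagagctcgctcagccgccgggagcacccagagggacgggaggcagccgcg
KDM1B: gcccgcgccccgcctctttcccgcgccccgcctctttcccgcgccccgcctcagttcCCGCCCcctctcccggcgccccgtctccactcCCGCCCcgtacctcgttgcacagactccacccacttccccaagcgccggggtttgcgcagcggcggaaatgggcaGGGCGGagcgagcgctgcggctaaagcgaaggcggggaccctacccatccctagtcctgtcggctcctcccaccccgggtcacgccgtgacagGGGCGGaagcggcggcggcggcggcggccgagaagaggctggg
SMYD3: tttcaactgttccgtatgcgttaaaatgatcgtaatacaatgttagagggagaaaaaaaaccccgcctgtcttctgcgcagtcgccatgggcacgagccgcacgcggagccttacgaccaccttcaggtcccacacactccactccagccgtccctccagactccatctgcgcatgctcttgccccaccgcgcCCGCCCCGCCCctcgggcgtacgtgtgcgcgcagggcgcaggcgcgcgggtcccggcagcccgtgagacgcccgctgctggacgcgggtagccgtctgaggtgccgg

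The NSD1 window held 1 GC box and 7 CG dinucleotides, and the SETD7 window held no GC box and 22 CG dinucleotides. The KDM1B window held 4 GC boxes and 39 CG dinucleotides, and the SMYD3 window held 2 overlapping GC boxes and 34 CG dinucleotides. RefSeq promoters were found for 34 of the 38 members (not for JMJD6, SETD1B, NSD3 and DOT1L), and their median was 30 CG dinucleotides against 14 over all 27305 promoters of the table. A GC box lay in 27 of the 34 members and in 44.6% of all promoters. It lay in 4 of 4 matched genes that rose in at least 4 chemicals and in 3 of 4 matched genes that fell in at least 4. The other letters searched, on both strands and with overlaps counted, were CCAAT (10 of 34 members, 35.7% of all promoters), CCGGAA (8 of 34, 17.6%), TATAAA (0 of 34, 12.0%), CACGTG (6 of 34, 7.43%) and TGACGTCA (1 of 34, 1.98%). The windows follow annotated gene starts, and the start used in HepaRG cells was not measured.

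At C5, members moved in both directions, and no probe rose in 1 chemical and fell in another. A probe is said to rise or fall when edgeR's quasi-likelihood test gave a Benjamini-Hochberg adjusted p under 0.05 over all probes tested in that chemical and the fold was at least 1.5. By this rule 25 probes of 21 genes changed in at least 1 chemical, 15 of them upward and 10 downward. Over the 8 chemicals this made 84 calls, 47 rising and 37 falling. Over all probes of the panel tested at C5, 25.0% of tests of a probe in a chemical were called, 11.6% rising and 13.4% falling. The share of all probes called in at least 1 chemical is not given here. The counts of member probes and genes therefore cannot be read against it. The genes with most calls were NSD1 and KDM1B, each in 7 chemicals, followed by KDM3B and SMYD3 in 6. How many of all probes were called in as many chemicals is not given either.

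The shares of members called were read against those of all probes tested, and they lay on both sides of them. In vorinostat 14 member probes rose and 9 fell of 41 tested (56.1%), where 22.7% of all probes tested rose and 24.9% fell (47.5% together). In tacedinaline 7 rose and 7 fell of 41 (34.1%), against 18.7% and 20.1% of all probes (38.8%). In apicidin 9 rose and 5 fell of 43 (32.6%), against 13.8% and 15.0% (28.8%). In these 3 chemicals, and in the 3 that follow, at least as many member probes rose as fell. In scriptaid 6 rose and 6 fell of 42 (28.6%), against 12.8% and 17.0% of all probes (29.8%). In mocetinostat 6 rose and 5 fell of 41 (26.8%), against 14.8% and 15.7% (30.5%). In panobinostat 4 rose and 3 fell of 43 (16.3%), against 6.77% and 9.46% (16.2%), and 11 were called when the batch entered as a block. The fewest calls came from the remaining chemicals. In valproic acid 1 rose and 2 fell of 42 (7.14%), against 4.84% and 6.22% of all probes (11.1%). In trichostatin A no member was called of 41 tested by edgeR or DESeq2, 2 had an unadjusted p under 0.05 in edgeR, and 0.0154% of all probes were called. The median log2 change of the members lay between -0.13 in vorinostat and 0.29 in mocetinostat, and that of all probes between 0.00 and 0.08.

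**Figure D1:**
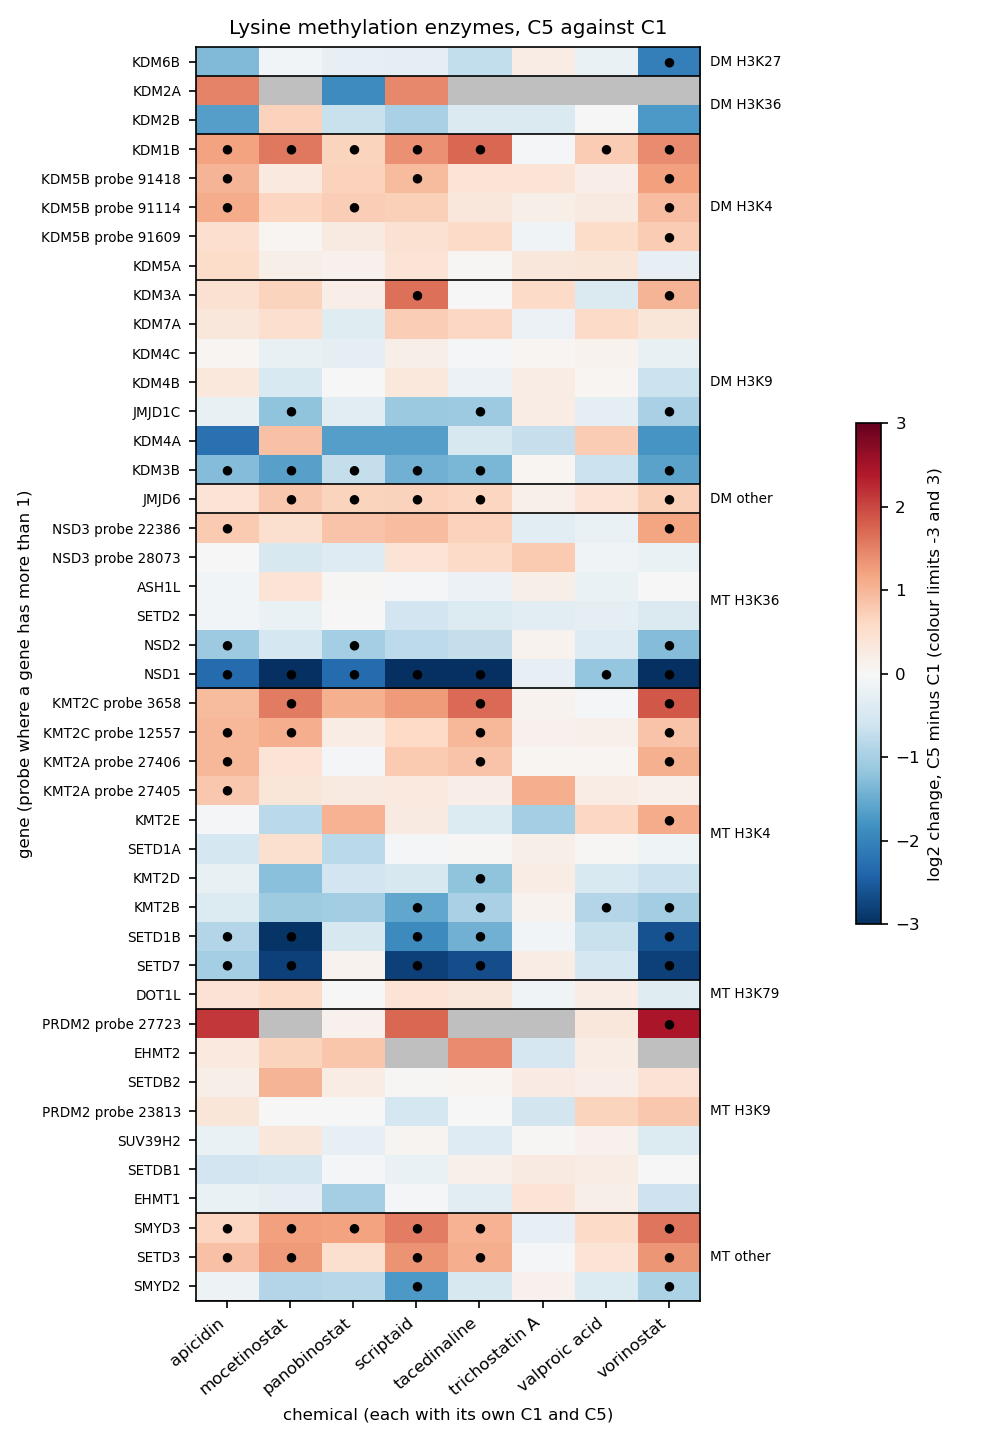
Log2 change at C5 against C1 (colour, limits -3 and 3) for the 43 member probes tested in at least 1 chemical (rows, grouped by the lysine they act on, DM for demethylase and MT for methyltransferase) in 8 chemicals (columns). Dots mark calls and grey marks a probe that was not tested. NSD1 is blue with a dot in 7 columns and KDM1B red with a dot in 7, while the trichostatin A column holds no dot.

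NSD1, which methylates H3K36 and is mutated in Sotos syndrome, fell in 7 chemicals. In tacedinaline the C1 libraries of batches B326, B330 and B303 read 60.3, 66.0 and 61.7 CPM and the C5 libraries 3.81, 3.39 and 8.10 CPM. All 3 C5 libraries lay far below all 3 at C1, and the log2 change was -3.61 (SE 0.367, edgeR adjusted p = 7.25e-11). In mocetinostat C1 read 27.2, 33.3 and 49.8 CPM and C5 read 2.04, 0 and 5.63 CPM, and the count of 0 in batch B330 allows up to 0.758 CPM (3 counts). The groups did not overlap and the log2 change was -3.87 (SE 0.848, adjusted p = 0.00242), the lowest of any member. In vorinostat C1 read 52.3, 54.3 and 61.7 CPM and C5 10.9, 1.57 and 7.17 CPM (log2 change -3.23, SE 0.415, adjusted p = 7.04e-08), on 3 to 12 counts at C5. In scriptaid C1 read 45.7, 43.5 and 66.7 CPM and C5 0.453, 6.67 and 4.68 CPM (log2 change -3.65, SE 0.574, adjusted p = 0.000111). In both chemicals every C5 library was below every C1 library. The changes were smaller but of the same sign in panobinostat (-2.31, SE 0.299, adjusted p = 1.01e-05) and apicidin (-2.32, SE 0.556, adjusted p = 0.00309).

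For valproic acid NSD1 read 43.7, 34.2 and 48.7 CPM at C1 and 15.9, 26.2 and 14.6 CPM at C5, with a log2 change of -1.16 (SE 0.378, adjusted p = 0.0495). For trichostatin A it read 39.9, 35.4 and 11.3 CPM at C1 and 27.1, 19.9 and 26.1 CPM at C5, so that the groups overlapped through the C1 library of batch B303. The log2 change was -0.25 (SE 0.338, adjusted p = 0.87), and without batch B303 it was -0.69 (adjusted p = 0.197), with no member called either way. Over all probes of trichostatin A, 0 rose and 2 fell of 12993 tested with batch B303. Without that batch 102 rose and 182 fell of 12675. The valproic acid call was lost without batch B326 (adjusted p = 0.361) or B303 (0.162), and the apicidin call without B303 (log2 change -2.05, adjusted p = 0.0502).

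The remaining members of the NSD family did not share one direction. NSD2, another H3K36 methyltransferase, fell in 3 chemicals. It read 40.8, 28.6 and 28.3 CPM at C1 and 14.6, 8.90 and 16.3 CPM at C5 of vorinostat, a log2 change of -1.30 (SE 0.395, adjusted p = 0.00624), and it changed by -1.08 in apicidin and -1.03 in panobinostat. NSD2 lost its call without batch B326 or B330 in vorinostat (adjusted p = 0.0508 and 0.0546), without B303 in apicidin (0.158) and without B326 or B303 in panobinostat (0.114 and 0.226). NSD3 rose by probe NSD3_22386 in vorinostat (log2 change 1.19, SE 0.317, adjusted p = 0.0021) and apicidin (0.78, SE 0.262, adjusted p = 0.0283). Its vorinostat libraries read 15.5, 15.8 and 22.8 CPM at C1 and 39.2, 57.6 and 26.7 CPM at C5, all above C1. Without batch B330 the NSD3 call was lost in vorinostat (adjusted p = 0.136) and in apicidin (0.421), and in apicidin also without B303 (0.0876). Its other probe, NSD3_28073, had log2 changes from -0.48 to 0.78 and no call. SETD2 and ASH1L, which also act on H3K36, had no call at C5, and their log2 changes ran from -0.58 to -0.01 and from -0.19 to 0.40.

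The H3K4 methyltransferases, with KMT2E listed among them, moved both ways. In 80 tests of 10 probes they had 15 falling calls over 4 probes (18.8%, against 13.4% of all tests). The 12 rising calls came from 5 probes (15.0%, against 11.6% of all tests). These shares describe 8 genes and were not tested as a difference from other genes. SETD7, which monomethylates H3K4 and many other proteins, fell in 5 chemicals. The mocetinostat libraries read 45.8, 43.6 and 41.9 CPM at C1 and 4.59, 10.6 and 3.26 CPM at C5 (log2 change -2.81, SE 0.450, adjusted p = 0.00018). The vorinostat libraries read 49.4, 54.3 and 54.6 CPM at C1 and 9.12, 6.28 and 7.83 CPM at C5 (-2.80, SE 0.322, adjusted p = 8.23e-09). In panobinostat it read 34.0, 34.7 and 43.0 CPM at C1 and 39.3, 34.9 and 45.2 CPM at C5 (0.10, SE 0.243, adjusted p = 0.84). The C5 libraries thus lay far below C1 in the first pair of chemicals, and overlapped C1 in panobinostat. SETD7 also fell in scriptaid (-2.81, SE 0.484), tacedinaline (-2.66, SE 0.326) and apicidin (-1.02, SE 0.276), the last call being lost without batch B330 (-0.81, adjusted p = 0.143). In valproic acid its log2 change was -0.53 (adjusted p = 0.165) and in trichostatin A 0.23 (adjusted p = 0.752).

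SETD1B, the catalytic subunit of a COMPASS complex that trimethylates H3K4, fell in 5 chemicals. Mocetinostat gave 19.6, 39.0 and 29.4 CPM at C1 and 3.82, 2.28 and 5.33 CPM at C5 (log2 change -2.95, SE 0.469, adjusted p = 0.000174). Vorinostat gave 32.7, 33.0 and 43.7 CPM at C1 and 7.29, 7.33 and 3.26 CPM at C5 (-2.61, SE 0.361, adjusted p = 2.64e-07). No C5 library reached a C1 library in either chemical. It also fell in scriptaid (-1.92), tacedinaline (-1.45) and apicidin (-0.89), and the apicidin call was lost without batch B330 (-0.70, adjusted p = 0.148) or B303 (-0.84, adjusted p = 0.13). Its log2 change was -0.47 in panobinostat (adjusted p = 0.231) and -0.67 in valproic acid (0.0659). SETD1A, its paralog, ranged from -0.81 to 0.49 with no call.

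KMT2B, an H3K4 methyltransferase active at developmental promoters, fell in scriptaid (log2 change -1.57), vorinostat (-1.05), tacedinaline (-0.97) and valproic acid (-0.87). In scriptaid it read 53.1, 37.4 and 36.3 CPM at C1 and 14.5, 7.58 and 21.3 CPM at C5 (SE 0.352, adjusted p = 0.0024). The groups did not overlap there or in the other 3 chemicals, although the C5 libraries of vorinostat spread from 5.47 to 33.0 CPM. Each of the 4 calls was lost without some batch, in fits with fewer libraries. The log2 changes there were -1.41 (B326) and -1.32 (B330) in scriptaid and -0.77 (B326) and -0.91 (B303) in vorinostat. They were -0.78 (B330) and -0.97 (B303) in tacedinaline and -0.80 (B326), -0.95 (B330) and -0.87 (B303) in valproic acid. The values without a batch were an adjusted p of 0.0843 (B326) and 0.0634 (B330) in scriptaid, 0.12 (B326) and 0.0984 (B303) in vorinostat, 0.147 (B330) and 0.0502 (B303) in tacedinaline and 0.31 (B326), 0.0674 (B330) and 0.0644 (B303) in valproic acid. KMT2D, which methylates H3K4 at enhancers, fell in tacedinaline (-1.21, SE 0.451, adjusted p = 0.0271) on 9 to 16 counts at C5, and lost that call without any 1 of the batches (adjusted p = 0.0565 to 0.171).

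The rising probes of the H3K4 methyltransferase group belonged to KMT2A, KMT2C and KMT2E, the last listed there as a relative. KMT2C, the enhancer methyltransferase paralogous to KMT2D, rose in 4 chemicals by probe KMT2C_12557. In tacedinaline this probe read 583, 639 and 511 CPM at C1 and 1200, 1180 and 1070 CPM at C5 (log2 change 0.99, SE 0.131, adjusted p = 4.12e-08). In mocetinostat it read 639, 633 and 512 CPM at C1 and 1390, 1230 and 1180 CPM at C5 (1.09, SE 0.182, adjusted p = 0.000262). In each, the lowest C5 library lay well above the highest at C1. It also rose in apicidin (1.00) and vorinostat (0.86), and no 1 batch carried any of these 4 calls. Probe KMT2C_3658 of the same gene rose in mocetinostat (1.57), tacedinaline (1.69) and vorinostat (1.87), and its mocetinostat call was lost without batch B326 (adjusted p = 0.0817) or B330 (0.18). Partial copies of KMT2C exist elsewhere in the genome, so which transcripts these probes count is uncertain.

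KMT2A, the founding mixed-lineage leukemia methyltransferase, rose by probe KMT2A_27406 in apicidin (log2 change 1.00), tacedinaline (0.85) and vorinostat (1.06), and by probe KMT2A_27405 only in apicidin (0.82), where both were called. In vorinostat probe KMT2A_27406 read 20.1, 16.1 and 28.0 CPM at C1 and 44.7, 47.6 and 41.7 CPM at C5 (SE 0.275, adjusted p = 0.00159), and probe KMT2A_27405 changed by 0.15 (SE 0.265, adjusted p = 0.652). The 2 probes of KMT2A thus gave different calls in tacedinaline and vorinostat, and their difference was not tested. Leaving out 1 batch ended each KMT2A call, without B330 in vorinostat (adjusted p = 0.0541), without B326 or B330 in tacedinaline (0.0681 and 0.0677), and in apicidin without B326 or B303 for probe KMT2A_27406 (0.0716 and 0.106) and without B330 or B303 for probe KMT2A_27405 (0.0824 and 0.0513). KMT2E, a relative with no established catalytic activity, rose in vorinostat (1.12, SE 0.342, adjusted p = 0.00637) with overlapping groups, and lost the call without batch B330 (0.82, adjusted p = 0.15).

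**Figure D2:**
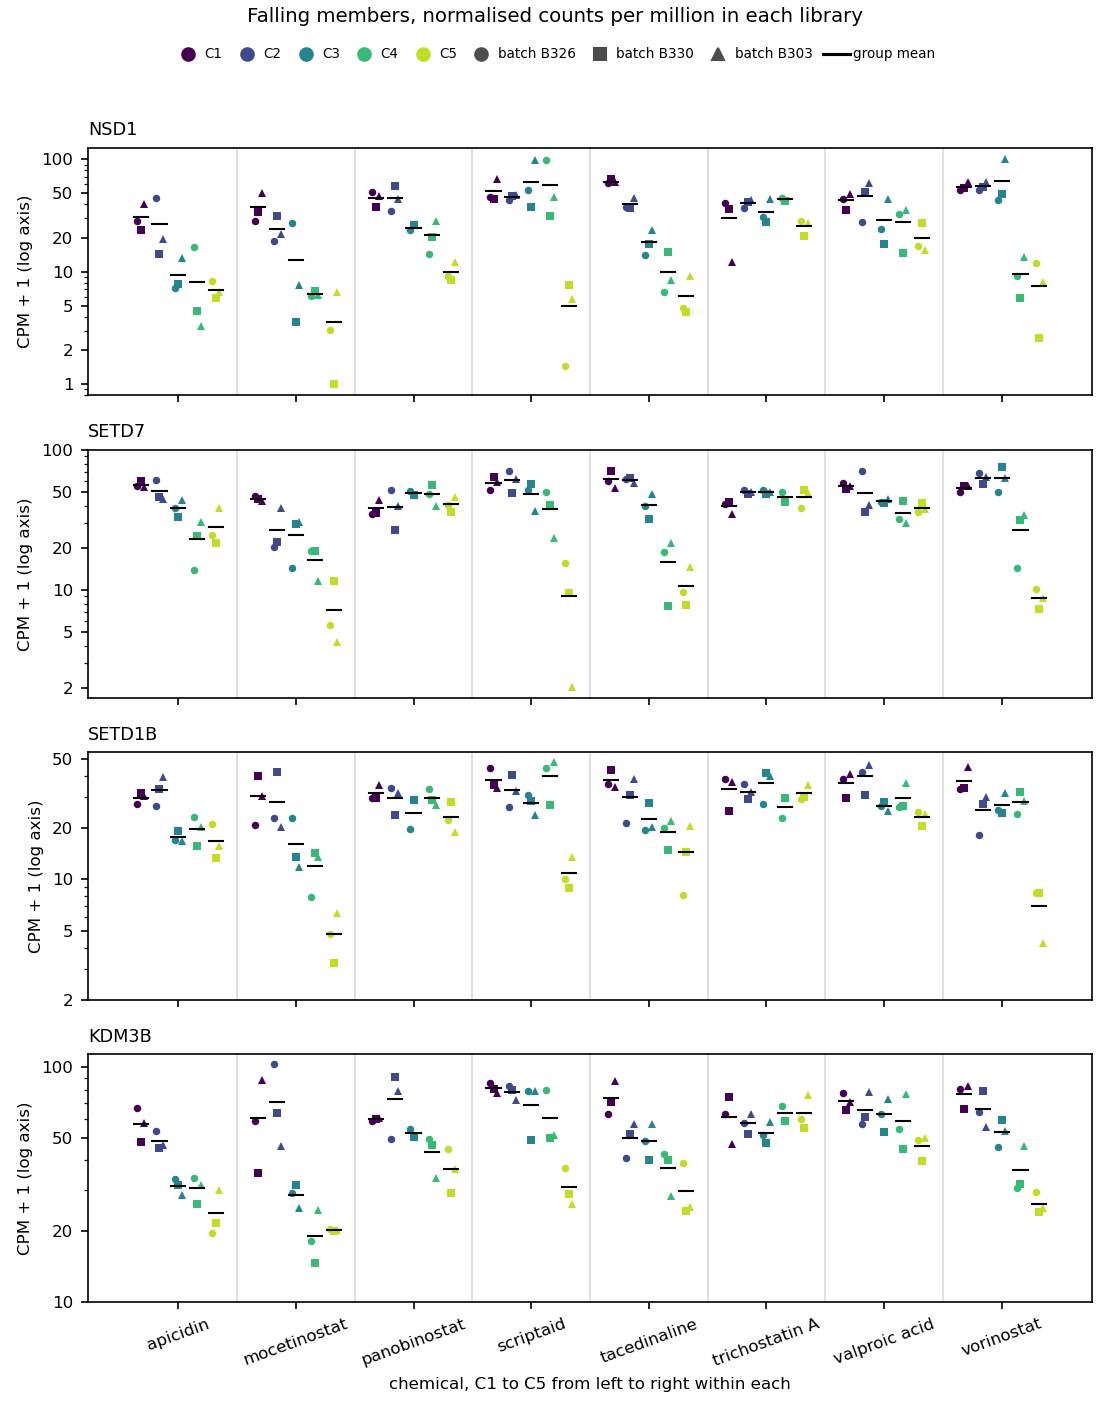
Normalised CPM plus 1 (log axis) of NSD1, SETD7, SETD1B and KDM3B in each of the 118 libraries, by chemical and by level from C1 (left) to C5 (right). Symbols mark the HepaRG batch and bars the group mean. NSD1 falls to between 0 and 10.9 CPM at C5 of mocetinostat, scriptaid, tacedinaline and vorinostat, and SETD7 stays between 34.9 and 45.2 CPM at C5 of panobinostat.

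The demethylases of H3K4 were read by 5 probes, 3 of them for KDM5B. In 40 tests they had 14 rising calls (35.0%, against 11.6% of all tests) and no falling call, and the 14 came from KDM1B and KDM5B. This share describes 3 genes, with KDM5B counted by each of its 3 probes. It was not tested as a difference from other genes. KDM1B (LSD2), the flavin-dependent H3K4 demethylase of gene bodies, rose in 7 chemicals. In tacedinaline it read 59.4, 76.5 and 55.8 CPM at C1 and 197, 214 and 230 CPM at C5 (log2 change 1.73, SE 0.166, adjusted p = 1.47e-11). The mocetinostat libraries read 81.0, 67.9 and 88.2 CPM at C1 and 190, 245 and 276 CPM at C5 (1.59, SE 0.227, adjusted p = 6.4e-05). In vorinostat it read 55.1, 64.6 and 70.7 CPM at C1 and 154, 156 and 201 CPM at C5 (1.42, SE 0.186, adjusted p = 1.08e-07). Every C5 library lay above every C1 library in the 7 chemicals. The changes were 1.38 in scriptaid, 1.21 in apicidin, 0.76 in valproic acid and 0.66 in panobinostat, and in trichostatin A the log2 change was -0.06 (SE 0.206, adjusted p = 0.964). The call was lost in scriptaid without batch B326 or B330 (adjusted p = 0.0973 and 0.0653), in valproic acid without B326 or B330 (0.318 and 0.191) and in panobinostat without B326 or B303 (0.135 and 0.265).

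KDM5B, a JmjC demethylase of trimethylated H3K4, was read by 3 probes. All 3 rose in vorinostat, by 1.22 (probe KDM5B_91418), 0.93 (probe KDM5B_91114) and 0.75 (probe KDM5B_91609) on the log2 scale. Probe KDM5B_91418 read 25.3, 31.7 and 37.0 CPM at C1 and 90.2, 70.6 and 62.0 CPM at C5 there (SE 0.250, adjusted p = 0.000113), with no overlap. Probe KDM5B_91418 also rose in apicidin (1.01) and scriptaid (0.96) and probe KDM5B_91114 in apicidin (1.12) and panobinostat (0.73). Of these 7 KDM5B calls 5 were lost without at least 1 batch. Probe KDM5B_91114 lost its call in vorinostat without B326 (adjusted p = 0.0863) and in panobinostat without any 1 batch (0.102 to 0.176), and probe KDM5B_91609 lost it in vorinostat without B326 (0.0703) or B303 (0.112). Probe KDM5B_91418 lost it in apicidin without B330 (0.0589) and in scriptaid without B326 (0.208) or B330 (0.0917). KDM5A, its paralog, had log2 changes from -0.24 to 0.55 and no call.

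Of the 7 H3K9 demethylase probes, 2 fell (KDM3B and JMJD1C), 1 rose (KDM3A) and 4 had no call. Over 56 tests this made 9 falling calls (16.1%, against 13.4% of all tests) and 2 rising calls (3.57%, against 11.6%), and no test compared these genes with the H3K4 demethylases. KDM3B, a JmjC demethylase of mono- and dimethylated H3K9, fell in 6 chemicals. The vorinostat libraries read 79.8, 65.4 and 82.0 CPM at C1 and 28.3, 23.0 and 24.1 CPM at C5 (log2 change -1.60, SE 0.245, adjusted p = 1.62e-06). Mocetinostat gave 57.7, 34.4 and 86.9 CPM at C1 and 19.4, 19.0 and 19.3 CPM at C5 (-1.63, SE 0.359, adjusted p = 0.00244). The C5 libraries were tightly grouped below a C1 group that spread widely in mocetinostat. KDM3B also fell in scriptaid (-1.44), tacedinaline (-1.37), apicidin (-1.31) and panobinostat (-0.72). The panobinostat call was lost without any 1 batch (adjusted p = 0.0707 to 0.212), and valproic acid gave -0.64 (adjusted p = 0.0546).

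JMJD1C, a paralog of KDM3B, fell in mocetinostat (log2 change -1.20), tacedinaline (-1.09) and vorinostat (-0.98). In mocetinostat it read 105, 108 and 113 CPM at C1 and 43.6, 58.1 and 40.3 CPM at C5 (SE 0.258, adjusted p = 0.00212), and no 1 batch carried any of the 3 calls. KDM3A, the third member of that family, rose in scriptaid (1.65, SE 0.522, adjusted p = 0.0223) and vorinostat (1.03, SE 0.437, adjusted p = 0.049). Its scriptaid libraries read 13.1, 13.0 and 15.2 CPM at C1 and 35.8, 28.5 and 66.6 CPM at C5, while its vorinostat groups overlapped. The scriptaid call was lost without batch B326 (adjusted p = 0.135) or B330 (0.0784). The vorinostat call was lost without batch B326 (log2 change 0.22, adjusted p = 0.752) and with the batch as a block (adjusted p = 0.0563). It was also lost with relative log expression scaling (0.0561), without the low-count filter (0.0525) and in 1 fit of all chemicals (0.214). KDM4A, KDM4B, KDM4C and KDM7A, the other H3K9 demethylases, had no call.

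The remaining genes listed with the demethylases have other targets. KDM6B, which removes methyl groups from H3K27, fell in vorinostat (log2 change -2.05, SE 0.615, adjusted p = 0.00571), on 23 to 36 counts at C1 and 3 to 5 at C5. It lost the call without batch B326 (adjusted p = 0.0586) or B330 (0.0659). JMJD6, a lysyl hydroxylase also listed as a demethylase, rose in 5 chemicals by 0.64 in tacedinaline to 0.80 in mocetinostat. The mocetinostat libraries read 128, 125 and 120 CPM at C1 and 241, 190 and 219 CPM at C5 (SE 0.217, adjusted p = 0.0103), with no overlap. Every JMJD6 call was lost without some batch. In tacedinaline (log2 change 0.48) and vorinostat (0.51) this was batch B303, without which the fold fell under 1.5. The other losses were without B326 or B330 in mocetinostat (adjusted p = 0.115 and 0.0933), without B326 or B303 in panobinostat (0.0664 and 0.153) and without any 1 batch in scriptaid (0.0658 to 0.221). KDM2A and KDM2B, which act on H3K36, had no call at C5.

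Of the methyltransferases with other targets, SMYD3 and SETD3 rose. SMYD3, which methylates histones and MAP3K2 and is often high in liver cancer, rose in 6 chemicals. Vorinostat gave 24.1, 23.9 and 20.9 CPM at C1 and 50.1, 58.1 and 99.8 CPM at C5 (log2 change 1.60, SE 0.273, adjusted p = 9.19e-06). Mocetinostat gave 27.6, 27.8 and 33.4 CPM at C1 and 67.0, 70.0 and 71.4 CPM at C5 (1.23, SE 0.280, adjusted p = 0.0032). The C5 libraries spread more in vorinostat than in mocetinostat, and all exceeded C1. SMYD3 also rose in scriptaid (1.53), panobinostat (1.20), tacedinaline (1.04) and apicidin (0.65), the last with overlapping groups. Its call was lost in apicidin without batch B326 or B303 (log2 change 0.35 and 0.59, adjusted p = 0.392 and 0.256), in mocetinostat without B330 (adjusted p = 0.0931), in panobinostat without B303 (0.0697) and in scriptaid without B330 (0.0518).

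SETD3, whose best known substrate is a histidine of actin, rose in 5 chemicals. In tacedinaline it read 81.6, 80.2 and 85.1 CPM at C1 and 197, 177 and 157 CPM at C5 (log2 change 1.10, SE 0.170, adjusted p = 9.52e-07). In vorinostat it read 79.2, 70.9 and 74.6 CPM at C1 and 164, 175 and 218 CPM at C5 (1.32, SE 0.185, adjusted p = 3.62e-07). The groups stayed clear of each other in both. The change was 1.35 in scriptaid, 1.28 in mocetinostat and 0.88 in apicidin, and the scriptaid call was lost without batch B330 (adjusted p = 0.0522). SMYD2, a methyltransferase of H3K36 and p53, fell in scriptaid (-1.72, SE 0.440, adjusted p = 0.00629) and vorinostat (-0.94, SE 0.299, adjusted p = 0.00893). Both SMYD2 calls were lost without batch B326 (adjusted p = 0.135 and 0.0859) or B330 (0.109 and 0.0657).

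**Figure D3:**
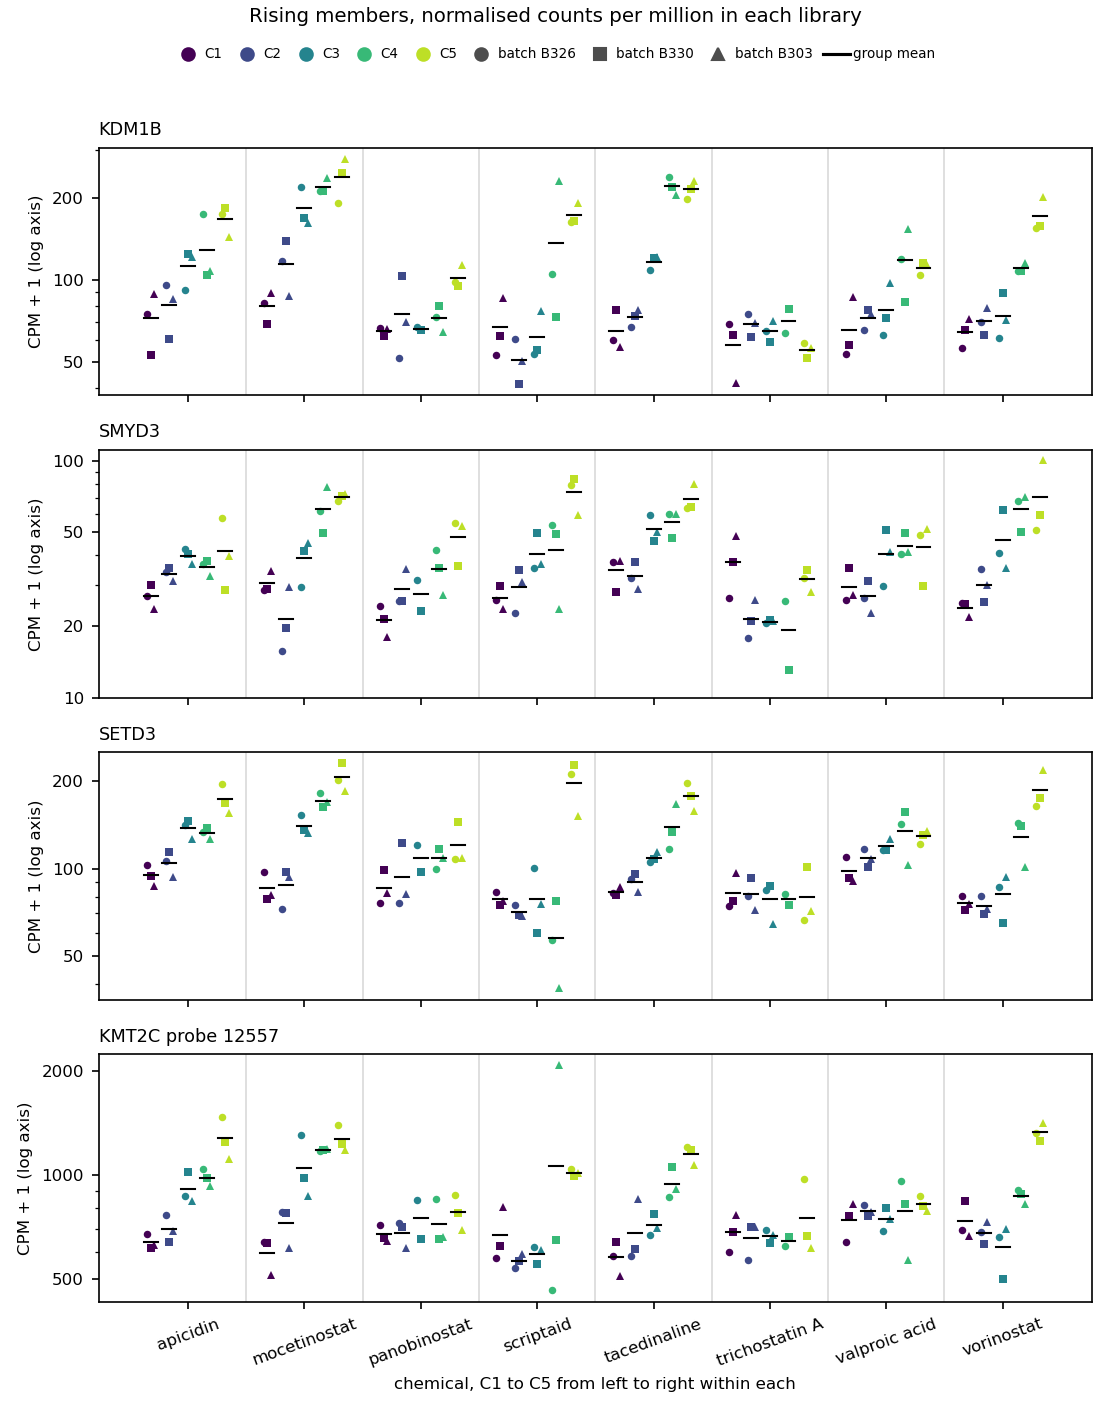
Normalised CPM plus 1 (log axis) of KDM1B, SMYD3, SETD3 and KMT2C (probe KMT2C_12557) in each of the 118 libraries, by chemical and by level from C1 (left) to C5 (right). Symbols mark the HepaRG batch and bars the group mean. KDM1B reads 197 to 230 CPM at C5 of tacedinaline against 55.8 to 76.5 CPM at C1, and the scriptaid C4 libraries of KMT2C spread from 463 to 2070 CPM.

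Of the H3K9 methyltransferases 7 of 8 probes were tested, 2 of them in some chemicals only, and 1 of their 51 tests was called (1.96%, against 25.0% of all tests). This describes 6 genes and was not tested as a difference from other genes. That call was probe PRDM2_27723 in vorinostat, which read 2.87, 0.779 and 1.93 CPM at C1 and 14.6, 3.66 and 11.7 CPM at C5, on 3 to 6 and 7 to 18 counts (log2 change 2.46, SE 0.857, adjusted p = 0.0165). It was lost without any 1 batch (log2 change 2.39 to 2.46, adjusted p = 0.0503 to 0.0983), and the other probe, PRDM2_23813, gave 0.81 (adjusted p = 0.257). SUV39H2, which trimethylates H3K9 in heterochromatin, ranged from -0.40 to 0.33 in log2 change over 8 chemicals. SETDB1 ranged from -0.57 to 0.26, SETDB2 from 0.04 to 1.02, EHMT1 (probe EHMT1_21985) from -1.03 to 0.41 and EHMT2 from -0.50 to 1.41 in the 6 chemicals where it was tested. Mean counts over all libraries were 6.7 for probe PRDM2_27723, 8.1 for EHMT2 and 24.8 for probe PRDM2_23813. They were 33.0 for EHMT1_21985, 40.4 for SETDB1, 72.5 for SETDB2 and 382.3 for SUV39H2. The part of low counts in the few calls was not tested. DOT1L, the only H3K79 methyltransferase, ranged from -0.37 to 0.58 with a mean level of 81.5 to 107 CPM at C1 and 81.4 to 133 CPM at C5.

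In all, 18 of the probes tested had no call at C5, and 16 genes had none by any probe. These genes were ASH1L, DOT1L, EHMT1, EHMT2, KDM2A, KDM2B, KDM4A, KDM4B, KDM4C, KDM5A, KDM7A, SETD1A, SETD2, SETDB1, SETDB2 and SUV39H2, and the 2 further probes were NSD3_28073 and PRDM2_23813, whose genes were called by another probe. A miss of the threshold does not show that a gene did not change, and KDM5A reached an adjusted p of 0.0121 at a fold under 1.5. Of the 45 probes 40 passed the low-count filter in all chemicals and 3 in some (KDM2A in 3, EHMT2 in 6 and PRDM2_27723 in 5). KDM8 and probe EHMT1_27160 passed in none, with group means of at most 2.82 and 1.54 CPM at C1 and C5.

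**Figure D4:**
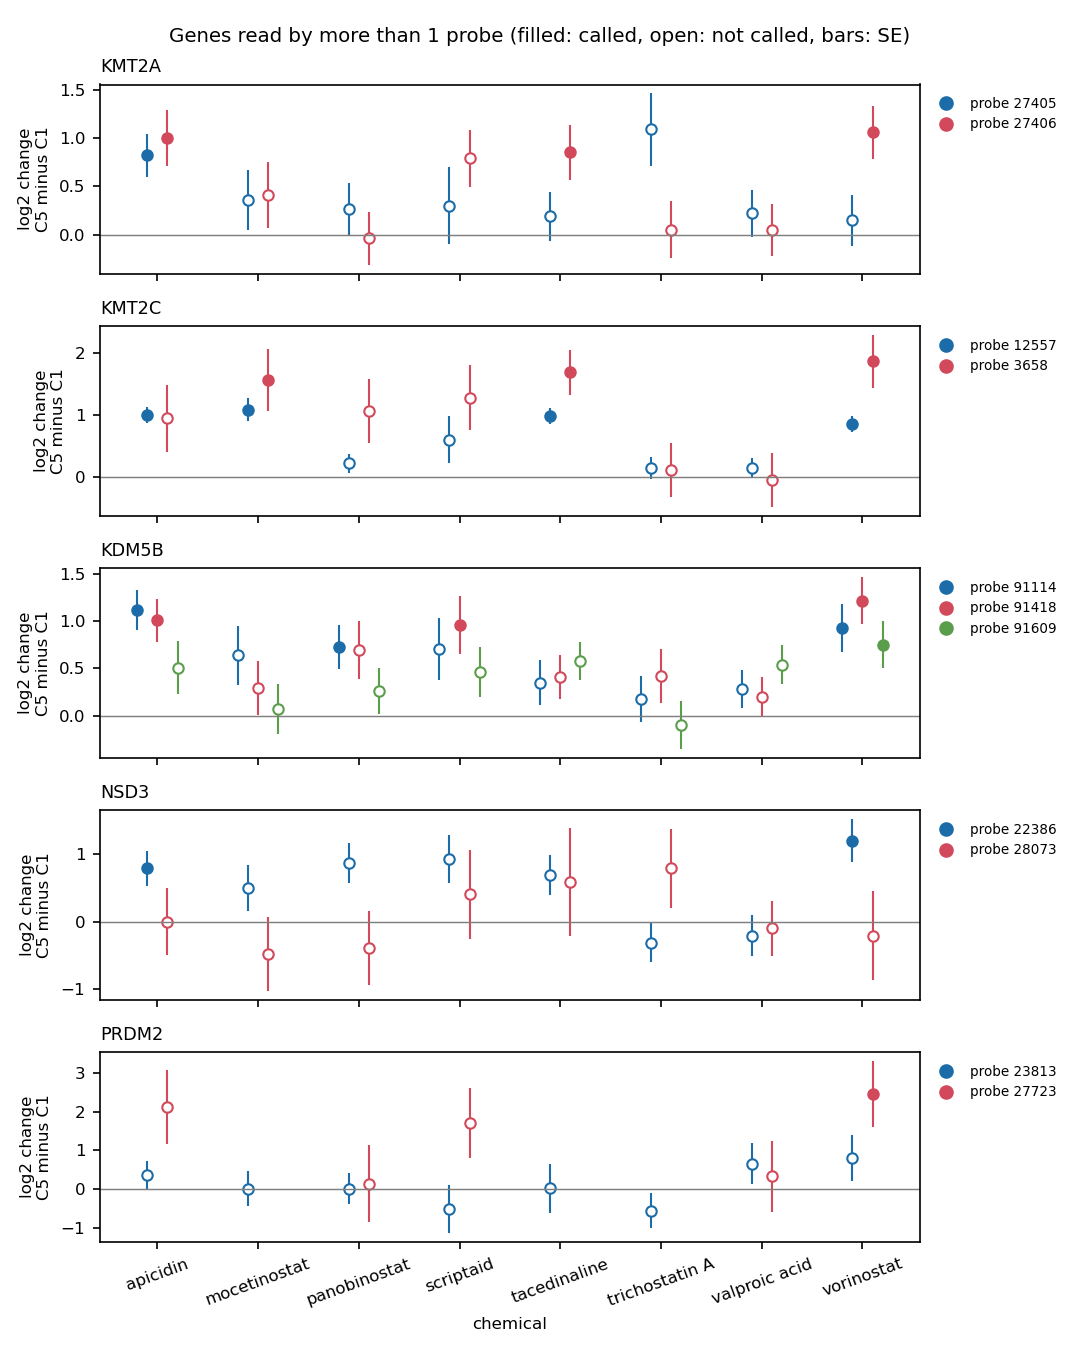
Log2 change at C5 against C1 (y axis, points with SE bars) by chemical (x axis) for the 5 genes read by more than 1 tested probe. Filled points are called and open points are not. The 3 KDM5B probes are filled together only in vorinostat, and the NSD3 probes part there at 1.19 and -0.21.

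Calls accumulated with concentration. At C2 no member was called by edgeR in any chemical. Of all probes 0.385% were called at C2 in tacedinaline, 0.191% in mocetinostat, 0.102% in apicidin, 0.0172% in vorinostat and 0.0% in the others. Without batch B303, which held the C2 library of mocetinostat that stood apart, 8 members were called at C2 of that chemical. The share of all probes called at C2 in that fit is not given here, so these 8 cannot be read against it. The same holds for the other counts at C3 and C4 without a batch. At C3 there were 14 calls in all. Apicidin had 4 (9.3% of member probes tested, against 15.3% of all probes) and mocetinostat 4 (9.76%, against 11.6%). Tacedinaline had 4 (9.76%, against 11.9%) and vorinostat 2 (4.88%, against 7.06%). None was called at C3 in scriptaid (1.34% of all probes), valproic acid (1.13%), panobinostat (0.00763%) and trichostatin A (0.0%). At C4 there were 52 calls in all. Vorinostat had 17 (41.5% of member probes tested, against 32.3% of all probes) and tacedinaline 13 (31.7%, against 32.8%). Mocetinostat had 10 (24.4%, against 23.7%) and apicidin 9 (20.9%, against 22.3%). Valproic acid had 2 (4.76%, against 11.9%) and panobinostat 1 (2.33%, against 2.56%). Scriptaid (4.87% of all probes) and trichostatin A (0.0%) had 0. Scriptaid therefore went from 0 calls at C4 to 12 at C5, and without batch B303, whose C4 library correlated least with its group, 1 member rose and 1 fell at C4. The counts at C3 fell to 9, 3 and 7 without batch B326, B330 or B303, and those at C4 to 30, 31 and 40.

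**Figure D5:**
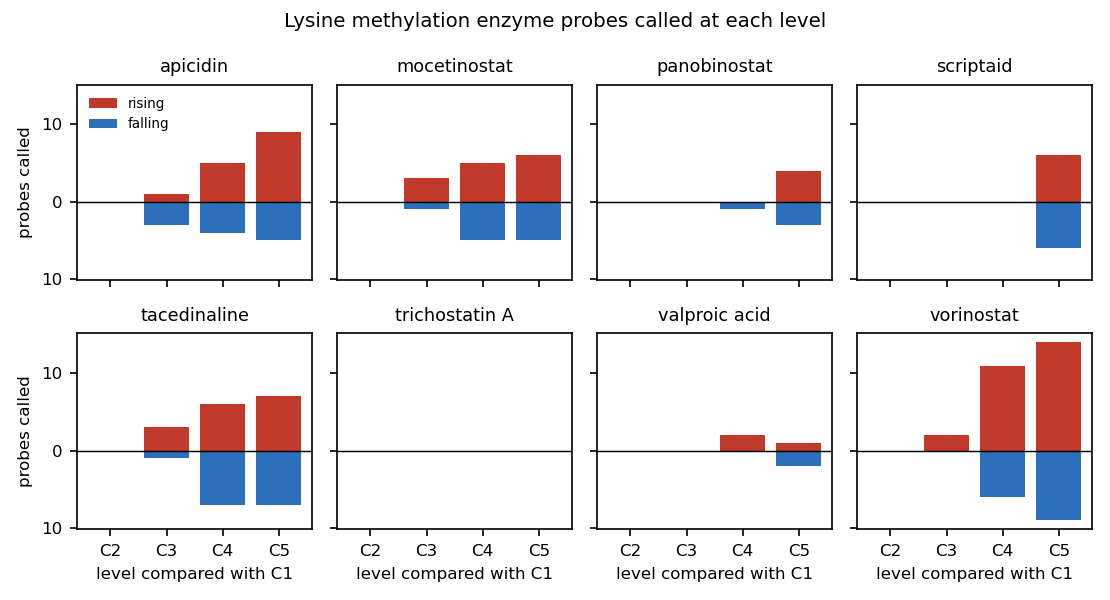
Number of member probes called rising (above 0) and falling (below 0) on the y axis at C2, C3, C4 and C5 against C1, with 1 panel for each chemical. No bar appears at C2 in any panel, the tallest bars are the 14 rising and 9 falling probes of vorinostat C5, and the trichostatin A panel is empty.

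Of the members called at any level, 14 pairs of probe and chemical were first called at C3, 40 at C4 and 37 at C5. NSD1 in tacedinaline went from a mean of 62.7 ± 2.96 CPM at C1 (SD, n = 3) to 39.1 ± 4.78 at C2, 17.6 ± 4.93 at C3, 9.06 ± 4.48 at C4 and 5.10 ± 2.61 at C5, and it was first called at C3 (log2 change -1.85, adjusted p = 3.51e-05). KDM1B in the same libraries read 63.9 ± 11.0 CPM at C1, 71.8 ± 5.40 at C2, 116 ± 6.53 at C3, 220 ± 16.8 at C4 and 214 ± 16.1 at C5. The C4 and C5 means of KDM1B lay within their spread of each other, whereas each NSD1 mean was lower than the one before. SETD7 in scriptaid stayed between 37.0 ± 13.2 and 59.6 ± 10.8 CPM from C1 to C4 and was at 8.01 ± 6.73 CPM at C5. NSD3_22386 rose in tacedinaline at C3 (0.87, adjusted p = 0.039) and C4 and was not called there at C5. The calls made at C4 alone were ASH1L (-0.64) and SETD2 (-0.59) falling and probe KDM5B_91418 (0.64) rising in tacedinaline, probe KDM5B_91418 (0.68) rising in valproic acid, KDM2B (-2.85) falling in apicidin and SUV39H2 (-0.96, adjusted p = 7.95e-05) falling in vorinostat.

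The C5 change was also compared between chemicals, as the difference of each pair of changes in 1 fit of all 118 libraries (28 pairs, adjusted over 15632 probes within each pair). Of 44 member probes tested, 15 differed in at least 1 pair and 9 in at least 1 pair without trichostatin A, 87 differences in all. The share of all probes that differed is not given here, so these counts cannot be read against it. SETD7 differed in 17 pairs, more than any other member. Its change in mocetinostat minus that in panobinostat was -3.01 (SE 0.471, edgeR adjusted p = 5.61e-07), and apicidin minus mocetinostat was 1.86 (SE 0.468, adjusted p = 0.00494). SETD1B differed in 12 pairs, with apicidin minus mocetinostat at 2.14 (SE 0.425, adjusted p = 0.000202). KMT2E differed in 6 pairs, with mocetinostat minus panobinostat at -1.96 (SE 0.525, adjusted p = 0.00533). Those pairs lay within the plate labelled H, which held apicidin, mocetinostat, panobinostat, trichostatin A and valproic acid, while scriptaid, tacedinaline and vorinostat were on the plate labelled E. Of the 28 pairs 15 crossed plates and held 57 of the 87 differences, and in these pairs plate and chemical cannot be told apart. The other 13 pairs held 30 differences over 10 probes, 5 of them for SETD7, 4 for SETD1B and 3 for KMT2E. By another split, 7 of the 28 pairs held trichostatin A, which had no member call. All 5 differences of SMYD3 and all 4 of JMJD1C lay in these 7 pairs. So did 5 of the 17 for SETD7 and 4 of the 12 for SETD1B. Since the top concentrations were not matched, these are differences between the exposures as given.

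Related enzymes and partners were taken from lists of symbols. Among all probes tested at C5, 0.0154% to 24.9% fell and 0.0% to 22.7% rose, by chemical, and no list was tested against them. Of 22 other lysine methylation genes (25 probes, 15 to 20 tested in each chemical), 0 to 6 probes fell and 0 or 1 rose at C5. In scriptaid 6 of 17 fell, against 17.0% of all probes, and in vorinostat 3 of 15, against 24.9%. RIOX2, a JmjC histidyl hydroxylase, fell in 7 chemicals from -0.78 in panobinostat to -1.88 in vorinostat, where it went from 40.0 ± 3.21 to 10.7 ± 4.25 CPM (SD, n = 3). KMT5B, which dimethylates H4K20, fell in 5 chemicals by probe KMT5B_10757 (-1.43 in valproic acid, SE 0.237, adjusted p = 0.000261) and PHF2, a JmjC relative, in 4, on at most 5 counts a library at C5. Of 13 probes for 12 COMPASS subunits, RBBP5 (probe RBBP5_17589) rose in 4 chemicals, up to 1.58 in mocetinostat (45.2 ± 13.1 to 135 ± 25.9 CPM), and PAGR1, a subunit of the KMT2C and KMT2D complexes, fell in 4, down to -1.15 in scriptaid. Of 8 probes for 7 readers and partners of H3K9 methylation, 0 or 1 rose and 0 to 2 fell in each chemical. KDM1A, SETD4, SMYD1 and RIOX1 did not pass the low-count filter in any chemical.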

How the data were processed

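Cryopreserved HepaRG cells were exposed to 8 inhibitors at 5 concentrations for 72 h and read with the TempO-Seq human whole transcriptome panel. The authors deposited raw counts of reads per probe. The submitters' processing notes name bcl2fastq 2.20.422, fastp 0.23.2, STAR 2.7.10b and DESeq2 1.38.0, and the alignment build is not given in the sources used here. A count can shift where a probe also pairs with a related transcript, and reads carry no molecular identifiers, so limits from a count of 0 (3 counts) cover counting error only. Of 22069 rows, 1 lacked values in 88 libraries and was dropped. No 2 libraries were identical.

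Members and lists were chosen with earlier results of these data known. For each chemical, libraries of C1 to C5 were fitted with edgeR 4.0.16 (R 4.3.3; filterByExpr, TMM, glmQLFit, glmQLFTest), each level was set against C1, and p-values were adjusted by Benjamini-Hochberg over all probes tested. CPM were scaled by TMM within each fit, so levels are not exactly comparable between chemicals. Standard errors of log2 changes were derived from the F statistic. Separate cultures within a batch are not named in the labels, and p-values measure the spread between these libraries. Values were given for members called in at least 4 chemicals one way, for the largest called change each way in each chemical and for members without calls, and other members with calls, and the pairs of chemicals printed, were chosen after their values were seen.

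The labels tie replicates 1, 2 and 3 to HepaRG batches B326, B330 and B303. Deviations from the group mean correlated at a median r of 0.0299 over 232 pairs of libraries of the same batch in different groups and at -0.0122 over 464 pairs of different batches. Alternatives were relative log expression scaling, DESeq2 1.42.0, no filter on low counts, the batch as a block, 1 fit of all chemicals and leaving out each batch. The steps were tested on simulated data. Promoters came from RefSeq (GRCh38.p14).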

Additional observations from a re-analysis of the deposited data

Results flagged for a closer look

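For 15 probes the change from C1 to C5 differed between at least 1 pair of chemicals, by edgeR's test of the difference itself over 28 pairs. How many of all probes differed is not given here. The number of pairs with an adjusted p under 0.05 was 17 for SETD7, 12 for SETD1B, 9 for NSD1 and for SETD3, 8 for KDM3B, 6 for KDM1B and for KMT2E, 5 for SMYD3, 4 for JMJD1C and for probe KMT2C_12557, 3 for probe NSD3_22386 and 1 each for KDM6B, KMT2B, NSD2 and SMYD2. Of the 17 pairs for SETD7, 12 did not involve trichostatin A, and the numbers were 8 for SETD1B and 4 each for NSD1, SETD3 and KMT2E. Without batch B326, B330 or B303 the pairs for SETD7 numbered 13, 11 and 13, those for SETD1B 8, 7 and 9, those for NSD1 7, 4 and 6, those for SETD3 3, 5 and 8, those for KDM3B 4, 5 and 4 and those for KDM1B 3, 4 and 5. In the same order they numbered 4, 3 and 1 for SMYD3, 1, 0 and 3 for KMT2E, 0, 2 and 4 for JMJD1C, 3, 0 and 3 for KMT2C_12557, 0, 0 and 2 for NSD3_22386, 1, 0 and 4 for SMYD2 and 0, 0 and 1 for each of KDM6B, KMT2B and NSD2.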

How the results depend on the processing

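Of the 84 calls at C5, 39 held under every alternative run, 82 held with relative log expression scaling, 84 with DESeq2, 79 without the low-count filter, 77 in 1 fit of all chemicals and 56, 54 and 61 without batch B326, B330 and B303. No called change reversed its sign. In 1 fit of all chemicals, KMT2B and NSD1 lost their calls in valproic acid and KMT2B and JMJD6 in tacedinaline. SMYD3 in apicidin and KDM3A and PRDM2_27723 in vorinostat were also lost there. Without the low-count filter the lost calls were NSD3_22386 and SMYD3 in apicidin, JMJD6 and KDM5B_91418 in scriptaid and KDM3A in vorinostat. With relative log expression scaling they were JMJD6 in scriptaid and KDM3A in vorinostat. With the batch as a block (the pairing given by the labels) 1 call was lost and 6 were gained, the panobinostat count went from 7 to 11 members, the vorinostat count from 23 to 22, the valproic acid count from 3 to 4 and the differences between chemicals from 87 to 90. DESeq2 called 12 members in panobinostat and 5 in valproic acid, and 1 fit of all chemicals called 1 in valproic acid and 2 at C2. Leaving out 1 batch gave 8 to 13 calls in apicidin, 8 to 12 in mocetinostat, 2 to 7 in panobinostat, 4 to 17 in scriptaid, 11 to 14 in tacedinaline, 0 to 1 in valproic acid and 15 to 20 in vorinostat. Over the 8 chemicals it gave 0 to 8 calls at C2, 3 to 9 at C3 and 30 to 40 at C4, and 42 to 68 differences between chemicals. The panobinostat count was 2 without batch B326 or B303, the scriptaid count 6 without B326 and 4 without B330, the valproic acid count 0 without B326 and 1 without B330 or B303, the vorinostat count 15 without B326 and the apicidin count 8 without B303. Fewer libraries entered each of those fits, and calls over all probes dropped in them too. In panobinostat all probes went from 887 rising and 1240 falling to 351 and 662 without B303. In scriptaid they went from 1633 and 2178 to 575 and 1297 without B326 and to 443 and 1073 without B330. Shares of all probes at C2 to C4 without a batch are not given here. Trichostatin A had 0 member calls under every alternative, while 102 of all its probes rose and 182 fell without batch B303. Depth limits KDM6B (3 to 5 counts a library at C5) and PRDM2_27723 (3 to 18) in vorinostat, and NSD1 at C5 of mocetinostat (0 to 19 counts), scriptaid (1 to 22), tacedinaline (7 to 18) and vorinostat (3 to 12).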
